A study of Mus musculus with 2 samples.

Results

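The cells described are spinous keratinocytes of the interfollicular epidermis, the layer just above the dividing basal cells. The cells were chosen by measured keratin and envelope transcripts: a cell was a member when Krt1 and Krt10 together made up at least 1% of its UMIs (unique transcript molecules), Lor and Flg2 together under 0.3% and Krt79 under 0.05%, among barcodes with at least 500 detected genes and under 20% mitochondrial UMIs. This gave 383 of 7248 kept cells, 264 of 2913 in the Card14KI library and 119 of 4335 in the WT library. The study profiled whole back skin by droplet single-cell RNA sequencing in 1 Card14KI mouse, a Card14 knock-in whose genotype is labelled KI +/+, and 1 wild-type (WT) mouse, both C57BL/6 and 12 months old. Its title names pityriasis rubra pilaris, a scaling skin disease, and concerns IL-17 and IL-36. With 1 mouse per genotype there is no replicate and no test, and every difference describes these 2 libraries. Intervals are exact 95% intervals that cover counting error only.

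Basal keratinocytes divide on the basement membrane and make Krt5 and Krt14. When they move up they switch to Krt1 and Krt10, build desmosomes, and later, in the granular layer, make loricrin, filaggrin proteins and barrier lipids. CARD14 is an adaptor that acts in keratinocytes, where with BCL10 and MALT1 it switches on NF-kB; IL-17 and IL-36 act on the same cells and raise antimicrobial peptides and chemokines.

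Spinous cells were 9.06% (8.04 to 10.2) of kept Card14KI cells and 2.75% (2.28 to 3.28) of kept WT cells. Fibroblast-marked cells, which share the denominator, were 14.9% in Card14KI and 30.5% in WT, so more spinous cells and a lower yield of other cells cannot be told apart. Granular cells were 61 in Card14KI and 34 in WT, and basal cells 72 in Card14KI and 90 in WT. The spinous cells held 8018357 UMIs in Card14KI and 3423714 in WT, with medians per cell of 20278.5 UMIs and 3793 genes in Card14KI and 20899 UMIs and 3868 genes in WT. Median mitochondrial shares were 2.26% in Card14KI and 2.38% in WT. The libraries shared 2 barcodes, 0 of them spinous.

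The members carried the markers of the label in both libraries. Levels below are CPM, the UMIs of a gene scaled to the summed UMIs of the member cells. The keratin Krt10 reached 17821 CPM in Card14KI and 21202 CPM in WT, Krt77 11782 in Card14KI and 15789 CPM in WT, and Krt1 5432 in Card14KI and 5379 CPM in WT. The secreted keratinocyte proteins Krtdap (12555 in Card14KI and 12874 CPM in WT) and Sbsn (5911 in Card14KI and 6260 CPM in WT) were found at high levels as well, and each of these 5 genes was found in over 94% of cells. Krt1 and Krt10 chose the cells, so their levels are a description. The member nearest to the Krt1 and Krt10 limit held 1.01% in Card14KI and 1.04% in WT, and the nearest cell left out 0.998% in Card14KI and 0.995% in WT. For Lor and Flg2 the nearest values were 0.290% inside and 0.305% outside in Card14KI, and 0.274% inside and 0.435% outside in WT. For Krt79 they were 0.0485% inside and 0.0502% outside in Card14KI, and 0.0225% inside and 0.0727% outside in WT.

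Card14 itself was found at 14.8 CPM in Card14KI cells and 23.7 CPM in WT cells (119 in Card14KI and 81 UMIs in WT), a ratio of 0.63 (0.47 to 0.84). This direction depended on the cells included: the log2 ratio of -0.44 was 0.18 without cells that held 3 or more UMIs of a non-epithelial class, and 0.18 also without cells that held 3 or more of inner root sheath or fibroblast markers. The kit counts transcript 3' ends, so these counts do not read the knock-in allele and check no label. In granular cells Card14 stood at 68.7 CPM in Card14KI and 86.8 CPM in WT.

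Of 8598 genes with a mean of at least 5 CPM, 34 (0.395%) were higher by 2-fold in Card14KI and 68 (0.791%) lower, 1.19% in all. The scale was the log2 ratio of CPM + 10, so low genes show less than their plain ratio, and its median over all genes was 0.01. By log2 ratio the higher genes led with S100a8, S100a9, Epgn, Serpinb3a, Fbn2, Defb6 and Cxcl2. The lower genes led with inner root sheath keratins and fibroblast collagens. The epidermal lipoxygenase Alox12e (-2.30), the desaturase Scd2 (-1.90) and the stress keratin Krt6a (-1.83) were among the 14 lowest, and the protease Klk7 (-1.19) was lower by less than many fibroblast genes. Without the cell with the most UMIs of each gene in each library, 31 of the 34 higher and 29 of the 68 lower genes were still past 2-fold. Without cells that held 3 or more UMIs of a non-epithelial class, which left 197 Card14KI and 58 WT cells, 15 of the higher and 23 of the lower genes were; log2 ratios then were 3.95 for S100a8, 2.53 for Defb6, 2.08 for Epgn, 0.64 for both Cxcl2 and Il22ra2, 0.45 for Stfa1 and 0.24 for Cd74.

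**Figure D1:**
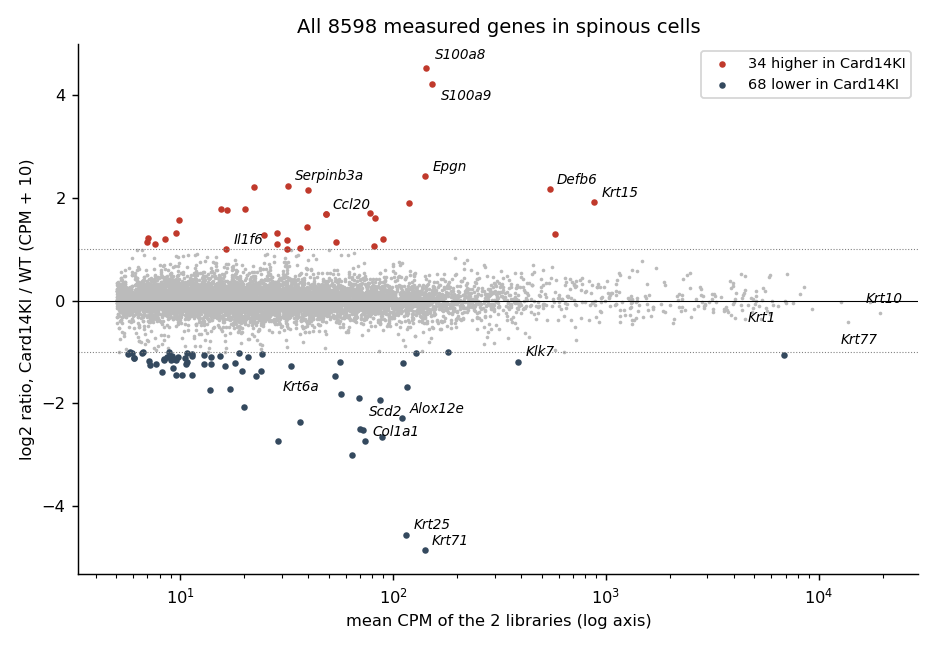
Log2 ratio of Card14KI over WT (CPM + 10) against mean CPM on a log axis, 1 point per measured gene in spinous cells; dotted lines mark 2-fold. The 34 higher genes are red and the 68 lower genes dark, and the spinous keratins at the right lie between -0.42 (Krt77) and 0.01 (Krt1).

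Among the higher genes the log2 ratio was largest for S100a8 and S100a9, the subunits of calprotectin, an antimicrobial and inflammatory protein. S100a8 (ENSMUSG00000056054, chromosome 3, 90668978 to 90670035, GRCm38) had 283 CPM in Card14KI and 2.63 CPM in WT, from 2267 in Card14KI and 9 UMIs in WT, 108 times the WT level (56.6 to 236). S100a9 (ENSMUSG00000056071, chromosome 3, 90692632 to 90695721) had 298 CPM in Card14KI and 6.43 CPM in WT, a ratio of 46.4 (30.6 to 74.3). Most Card14KI cells had neither. S100a8 was found in 13.6% of Card14KI cells and 2.52% of WT cells. In fibroblasts, which should lack it, it was found in 0% of Card14KI and 1.74% of WT cells. Among the 3 WT spinous cells with S100a8, 2 also had S100a9. Whether the WT share is background was not tested. The highest 10% of Card14KI cells held 99.5% of the S100a8 UMIs. The highest cell reached 23738 CPM in Card14KI and 219 CPM in WT. Of the 36 Card14KI cells with S100a8, 80.6% had S100a9, against 14.5% of the other Card14KI cells, and 61.1% had Rnase2b, against 16.2%. The stefin Stfa1 was found in 86.1% of the cells with S100a8 and 46.1% of the others, and the stress keratin Krt16 in 69.4% of the cells with it and 30.7% of the others. Cells with S100a8 had a median depth of 22294.5, against 19751.5 UMIs in the others, and Defb6 was about as frequent in both, 91.7% with S100a8 and 87.3% without. The neutrophil markers Csf3r, Retnlg and Ly6g were at 0 in Card14KI spinous cells, and the 4 neutrophil markers together stood at 5.36 CPM in Card14KI and 6.43 CPM in WT.

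**Figure D2:**
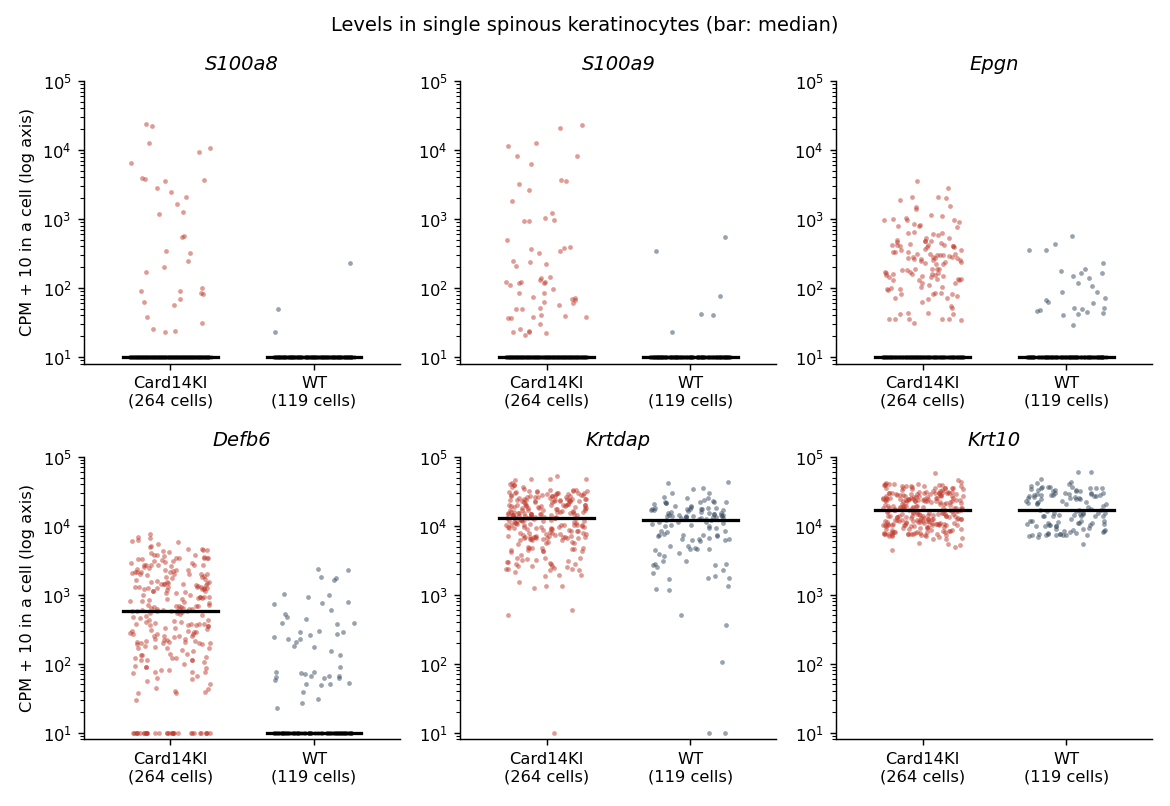
CPM + 10 on a log axis in each Card14KI and WT spinous cell, 1 point per cell, with a bar at the median. S100a8 and S100a9 are at 0 in most cells and reach 23738 CPM (S100a8) in Card14KI, while Krtdap spreads over a similar range in both libraries. Krt10 helped choose the cells, so its similar spread is a description.

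Defb6, a beta-defensin (ENSMUSG00000050756, chromosome 8, 19225478 to 19228209), differed across most cells. It had 900 CPM in Card14KI and 192 CPM in WT, a ratio of 4.68 (4.32 to 5.08), and was found in 87.9% of Card14KI cells and 42.9% of WT cells. The median cell had 568 CPM in Card14KI and 0 CPM in WT. With each cell thinned to 2000 UMIs the shares were 59.1% of 254 Card14KI cells and 16.8% of 113 WT cells. In fibroblasts, which should lack the gene, 3.69% of Card14KI cells and 4.08% of WT cells had a UMI before thinning, and 1.78% in Card14KI and 1.27% in WT after it, at medians of 5053 UMIs in Card14KI and 7638 UMIs in WT. Defb6 also marks the upper hair follicle, whose 4 markers with Defb6 summed to 2312 CPM in Card14KI and 1552 CPM in WT. Of the others, Krt79, which the choice of cells limits, had 13.97 CPM in Card14KI and 4.97 CPM in WT, Krt17 425 CPM in Card14KI and 422 CPM in WT and Cst6 973 CPM in Card14KI and 933 CPM in WT. In the Krt1 and Krt10 cells past the Krt79 limit Defb6 stood at 3923 CPM in Card14KI and 1545 CPM in WT. Among spinous cells with no Krt79 UMI its log2 ratio was 2.17, as over all members.

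Epgn encodes epigen, a ligand of the EGF receptor. It had 246 CPM in Card14KI and 37.7 CPM in WT (1971 in Card14KI and 129 UMIs in WT), a ratio of 6.52 (5.46 to 7.86), in 49.6% of Card14KI cells and 24.4% of WT cells (19.3% in Card14KI and 7.96% in WT when thinned). It was the only 1 of 10 measured EGF receptor ligands and receptors past 2-fold, where 1.19% of all measured genes were. Amphiregulin (Areg) had 130 in Card14KI and 128 CPM in WT, Hbegf 301 in Card14KI and 300 CPM in WT, Ereg 189 in Card14KI and 199 CPM in WT and the receptor Egfr 44.9 in Card14KI and 47.9 CPM in WT. The near-even value of Ereg depended on the cells included, with a log2 ratio of -0.07 over all members and 3.61 without the inner root sheath and fibroblast-marked cells.

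Serpinb3a, a clade B protease inhibitor, had 59.2 CPM in Card14KI and 4.67 CPM in WT (ratio 12.7, 7.73 to 22.4). Counting could split the near-identical Serpinb3 and stefin families, so their single-gene values are uncertain; Stfa1 had 129 in Card14KI and 35.3 CPM in WT. Fbn2, a fibrillin of extracellular microfibrils, had 42.9 CPM in Card14KI and 1.46 CPM in WT (344 in Card14KI and 5 UMIs in WT, ratio 29.4, 12.5 to 91.1), in 45.1% of Card14KI cells and 0.84% of WT cells. Rnase2b, an RNase A family gene, had 29.6 CPM in Card14KI and 1.46 CPM in WT. The natriuretic peptide gene Nppb had 159 UMIs in Card14KI and 0 UMIs in WT, and was found in 11.4% of Card14KI cells. Il22ra2, the soluble decoy receptor of IL-22, had 36.8 CPM in Card14KI and 3.50 CPM in WT.

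**Figure D3:**
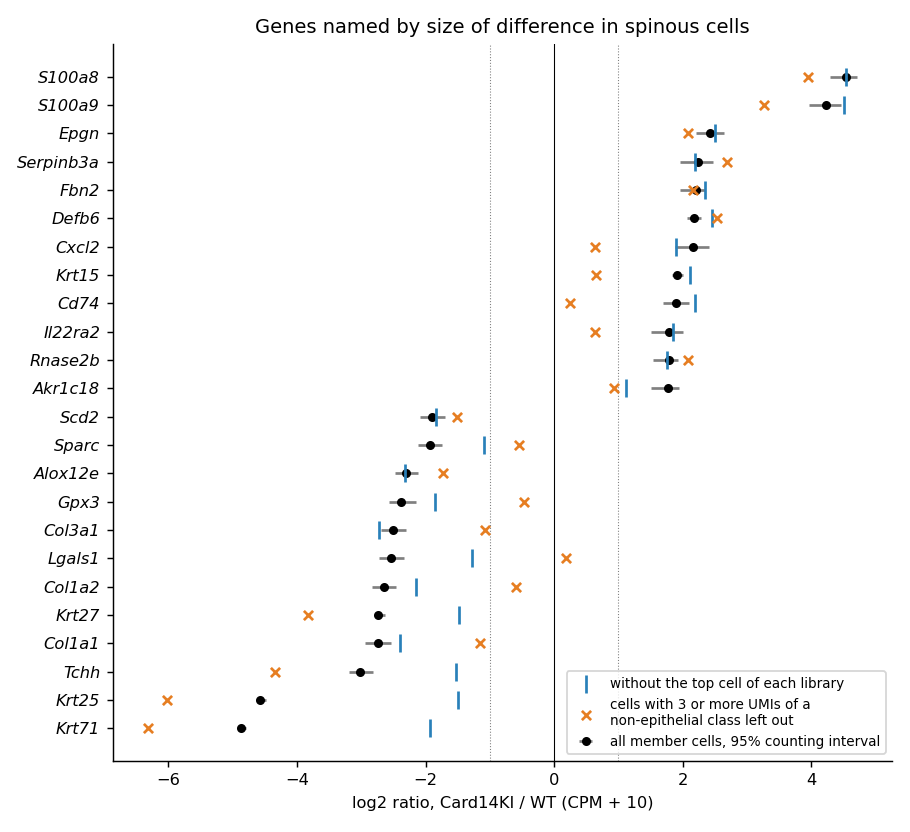
Log2 ratio of Card14KI over WT (CPM + 10) for the 12 highest and 12 lowest named genes, with 95% counting intervals. Blue ticks leave out the top cell of each library and orange crosses leave out cells with 3 or more UMIs of a non-epithelial class; S100a8 stays at 3.95 with the crosses and Lgals1 passes to 0.18.

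Keratinocyte genes that IL-17 is known to raise were higher in Card14KI: of 20 listed, 8 were measured, 8 of them higher and 4 past 2-fold, with a median of 1.27 on the log2 scale, where 52.0% of all measured genes were higher and 0.395% were higher by 2-fold. S100a8 passed the level filter through Card14KI alone and 12 members did not pass it; over the members with any UMI the median was 0.49. The chemokine genes came next after the S100 pair. Ccl20, which draws CCR6-bearing T cells and dendritic cells, had 78.8 CPM in Card14KI and 17.5 CPM in WT (ratio 4.50, 3.45 to 5.96). Cxcl2, a neutrophil chemoattractant, had 71.3 CPM in Card14KI and 8.18 CPM in WT (ratio 8.72, 5.97 to 13.2), but was found in 13.3% of Card14KI cells and 8.40% of WT cells. Nfkbiz, the NF-kB cofactor IkB-zeta, had 285 CPM in Card14KI and 211 CPM in WT. Lcn2 had 46 UMIs in Card14KI and 2 UMIs in WT and Slpi 52 in Card14KI and 2 UMIs in WT, under the level needed to count as measured. Il19, Il24, Cxcl5, Saa3, Defb4 and Csf3 had 0 UMIs in both libraries.

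Receptors and signal carriers of the pathway had list medians near even in spinous cells. Of 5 measured IL-17 and IL-22 receptor genes 0 passed 2-fold. Over all measured genes 1.19% did, so a count of 0 in a list this short says little. Il17ra stood at 8.36 in Card14KI and 9.05 CPM in WT. Il17re stood at 18.6 in Card14KI and 11.1 CPM in WT (log2 ratio 0.44, and -0.45 without the non-epithelial-marked cells). Of 23 measured CARD14, BCL10, MALT1 and NF-kB genes 15 were higher, 8 lower and 0 past 2-fold. Their median was 0.08 on the log2 scale, and counting intervals lay wholly above even for 6 and wholly below for 2. Over all 8598 measured genes the intervals lay wholly above even for 1196 and wholly below for 1126. The list's median was 0.34 in granular cells and 0.41 in basal cells, and the difference between layers was not tested. Tnfaip3, an inhibitor that NF-kB itself raises, had 351 CPM in Card14KI and 276 CPM in WT, Nfkbia 1574 in Card14KI and 1469 CPM in WT, and Traf3ip2, the IL-17 receptor adaptor Act1, 25.8 in Card14KI and 15.2 CPM in WT. The IL-36 genes had unlike ratios. Il1f6 (IL-36 alpha) had 25.2 CPM in Card14KI and 7.59 CPM in WT (ratio 3.32, 2.20 to 5.20), while Il1f9 (IL-36 gamma) had 20.8 in Card14KI and 21.0 CPM in WT, Il1f5 (the receptor antagonist) 105 in Card14KI and 92.6 CPM in WT and the receptor Il1rl2 34.8 in Card14KI and 31.0 CPM in WT. Of 6 IL-36 genes 4 were higher and 2 lower. Among other IL-1 family genes, the decoy receptor Il1r2 had 58.2 CPM in Card14KI and 28.9 CPM in WT (log2 ratio 0.81, and -0.08 without the non-epithelial-marked cells), and Il18 24.0 in Card14KI and 11.4 CPM in WT.

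Promoters of some of the genes higher by 2-fold are shown because the study concerns an NF-kB adaptor, with a match to the NF-kB motif in capitals. They run from 250 bases before to 50 bases after the RefSeq start of each gene on GRCm38.p6: S100a8 at chr3:90668821-90669120 on the plus strand, S100a9 at chr3:90695672-90695971 on the minus strand, Defb6 at chr8:19225228-19225527 on the plus strand, Cxcl2 at chr5:90903649-90903948 on the plus strand and Ccl20 at chr1:83116516-83116815 on the plus strand.
S100a8: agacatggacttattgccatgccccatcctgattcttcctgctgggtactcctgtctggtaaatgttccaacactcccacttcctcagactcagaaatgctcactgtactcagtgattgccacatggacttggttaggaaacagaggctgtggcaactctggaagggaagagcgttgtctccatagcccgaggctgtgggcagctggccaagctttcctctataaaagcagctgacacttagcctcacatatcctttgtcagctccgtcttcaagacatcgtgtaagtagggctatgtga
S100a9: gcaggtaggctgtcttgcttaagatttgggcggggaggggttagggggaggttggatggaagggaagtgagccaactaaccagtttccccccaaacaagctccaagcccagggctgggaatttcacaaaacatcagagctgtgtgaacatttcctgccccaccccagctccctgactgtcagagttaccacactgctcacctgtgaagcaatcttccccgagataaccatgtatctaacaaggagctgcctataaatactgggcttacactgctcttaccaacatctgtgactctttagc
Defb6: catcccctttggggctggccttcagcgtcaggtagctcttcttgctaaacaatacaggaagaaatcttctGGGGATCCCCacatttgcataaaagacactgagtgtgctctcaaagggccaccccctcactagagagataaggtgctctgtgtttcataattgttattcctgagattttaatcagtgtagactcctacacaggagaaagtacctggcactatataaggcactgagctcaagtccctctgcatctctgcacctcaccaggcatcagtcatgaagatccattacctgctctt
Cxcl2: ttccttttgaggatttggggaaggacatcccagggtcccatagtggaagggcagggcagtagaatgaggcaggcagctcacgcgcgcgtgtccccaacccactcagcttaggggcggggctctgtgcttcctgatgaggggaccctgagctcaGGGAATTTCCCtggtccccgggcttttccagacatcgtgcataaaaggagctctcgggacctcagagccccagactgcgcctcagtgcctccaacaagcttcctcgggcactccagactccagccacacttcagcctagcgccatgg
Ccl20: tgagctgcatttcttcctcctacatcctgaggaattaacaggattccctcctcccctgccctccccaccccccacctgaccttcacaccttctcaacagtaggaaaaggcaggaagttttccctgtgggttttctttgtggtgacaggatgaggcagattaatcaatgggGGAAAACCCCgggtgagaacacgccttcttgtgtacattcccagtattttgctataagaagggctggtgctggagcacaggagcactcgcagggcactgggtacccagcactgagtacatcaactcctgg
Both strands were searched. The Defb6 match begins at -180 from the start and the Ccl20 match at -80, and in Cxcl2 overlapping matches form 1 run. No match was in the S100a8 or S100a9 window. Epgn, Serpinb3a, Rnase2b, Akr1c18, Stfa1, Aim2 and Nppb, also higher by 2-fold, held no match either and are not shown. The share of matches among the promoters shown thus does not stand for the higher genes. Ccl20 is not among the 12 genes named as higher. Of the 12 genes named as higher 8 had a promoter in the table; 2 held an NF-kB match and 0 the AP-1 motif TGANTCA. Among all 32851 promoters of this length 8.46% held the NF-kB motif and 7.81% TGANTCA. A match describes letters only.

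Levels along differentiation were read by splitting the cells on the share of UMIs from the basal keratins Krt5 and Krt14 into cells with none (84 Card14KI and 44 WT), cells below 0.0240% (91 Card14KI and 36 WT) and cells above it (89 Card14KI and 39 WT). S100a8 was highest in Card14KI cells with no basal keratin, at 683 CPM, then 319 CPM and 153 CPM in the next ranges, against 1.12 CPM, 0.88 CPM and 5.04 CPM in WT. Serpinb3a followed the same order in Card14KI at 162 CPM, 93.1 CPM and 14.1 CPM, as did Defb6 at 1666 CPM, 1316 CPM and 483 CPM and Il1f6 at 57.3 CPM, 39.5 CPM and 9.25 CPM. In WT Defb6 stood at 163 CPM, 283 CPM and 137 CPM in the same order. In Card14KI the cells with the most basal keratin held most of the Krt15, Il22ra2, Cxcl2 and Cd74. Krt15 had 2329 CPM there in Card14KI and 837 CPM in WT, and Cxcl2 119 in Card14KI and 7.19 CPM in WT. Alox12e was lower in Card14KI in each range, at 22.8 CPM, 58.6 CPM and 19.6 CPM, against 201 CPM, 277 CPM and 114 CPM in WT. Median UMIs per cell in the same order of ranges were 12928.5, 21503 and 55526 in Card14KI and 17453, 24907.5 and 17145 in WT. The ranges thus also sort the Card14KI cells by depth, and the part of depth in these values was not tested.

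**Figure D4:**
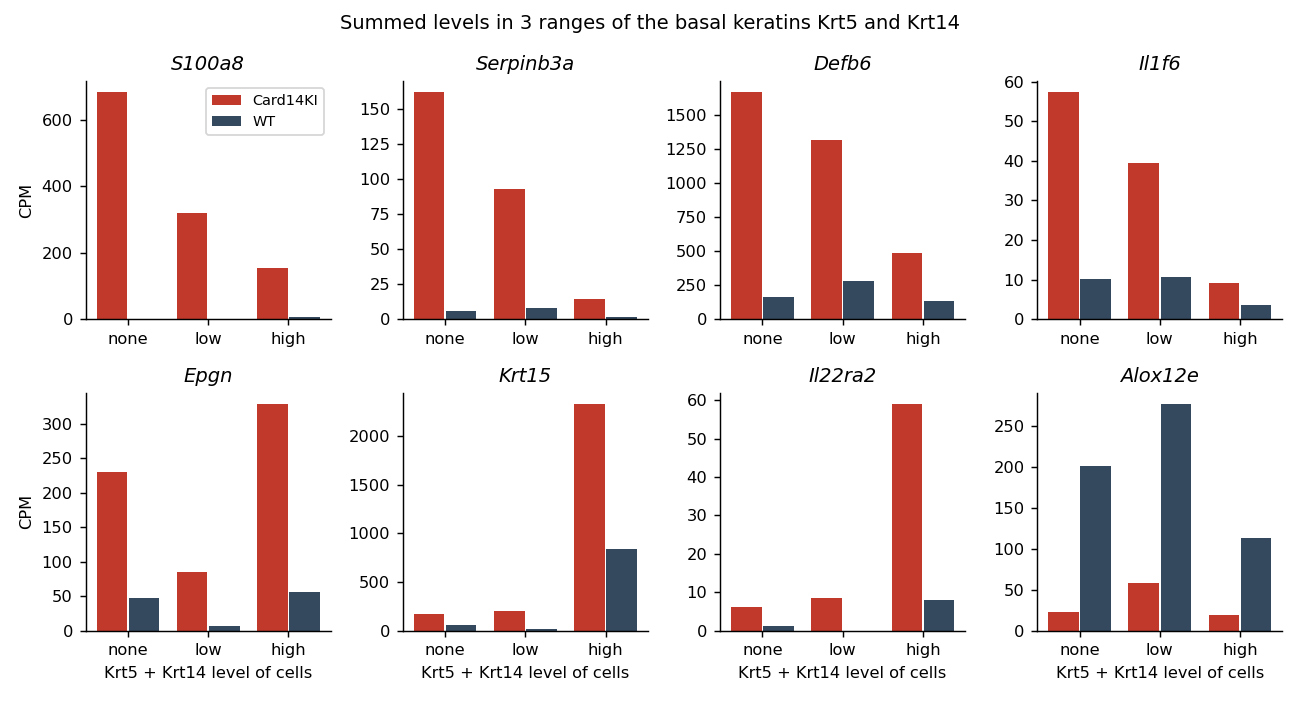
CPM summed over spinous cells with no, low (under 0.0240% of UMIs) and high Krt5 and Krt14, for 8 genes, Card14KI red and WT dark; bars start at 0. S100a8, Serpinb3a, Defb6 and Il1f6 are highest in Card14KI cells with no basal keratin, Krt15 and Il22ra2 in cells with the most.

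Basal genes were higher in Card14KI over all spinous cells. Of 17 measured basal and hemidesmosome genes 17 were higher and 0 lower, where 52.0% of all measured genes were higher. The list's median was 0.47 on the log2 scale. By range of Krt5 and Krt14 it was 0 with none (6 of 17 higher), 0.13 below 0.0240% (11) and 0.30 above it (15). Krt5 helps set these ranges and is on the list. Krt15 had 1401 CPM in Card14KI and 364 CPM in WT (ratio 3.85, 3.63 to 4.09), Krt5 1870 in Card14KI and 1095 CPM in WT, and the hemidesmosome collagen Col17a1 546 in Card14KI and 370 CPM in WT. Without the cells marked for a non-epithelial class the list's median was -0.06 and Krt15's log2 ratio 0.66. Of 19 cell cycle genes 17 were higher, with a median of 0.22 that was -0.04 without those cells. In the 3 ranges of Krt5 and Krt14 that median was 0 with none (7 of 19 higher), -1.04 below 0.0240% (1 higher) and 0.50 above it (18 higher). Its sign also changed when the 3 ranges had the same weights in both libraries. Without the non-epithelial-marked cells Krt5 (0.77 over all members) stood at -0.16 and Stmn1 (0.71) at -0.07. Stmn1 had 127 CPM in Card14KI and 73.6 CPM in WT, and Cenpf 26.8 in Card14KI and 15.2 CPM in WT.

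MHC class II genes were higher in Card14KI, 6 of 6, with a median of 1.34 that was 0.46 without the cells marked for a non-epithelial class. Cd74, the invariant chain, had 193 CPM in Card14KI and 44.4 CPM in WT. Of its UMIs 97.2% in Card14KI and 86.8% in WT lay in cells with 3 or more UMIs of the Langerhans cell markers Cd207, H2-Aa and Cd74 itself, 43 cells in Card14KI and 6 in WT. In the other cells Cd74 stood at 8.11 CPM in Card14KI and 6.81 CPM in WT. Since Cd74 is 1 of those markers, this split is a description. Of class II genes that did not make the split, H2-Eb1 stood in the other cells at 20.7 CPM in Card14KI and 6.81 CPM in WT (110 in Card14KI and 20 UMIs in WT) and H2-Ab1 at 9.05 CPM in Card14KI and 4.43 CPM in WT (48 in Card14KI and 13 UMIs in WT). MHC class I genes were higher in 10 of 12 with a median of 0.10, led by the immunoproteasome subunits Psmb9 (80.6 in Card14KI and 56.1 CPM in WT) and Psmb8 (87.0 in Card14KI and 62.8 CPM in WT).

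Markers of some other cell types were lower in Card14KI, those of the inner root sheath and of fibroblasts by the most UMIs. The Langerhans cell markers Cd207, H2-Aa and Cd74 together with Epcam were higher, at 521 CPM in Card14KI and 279 CPM in WT. Epcam alone, found in 90.2% of Card14KI and 77.3% of WT spinous cells, gave 216 CPM in Card14KI and 190 CPM in WT. Cd207 had 42.4 CPM in Card14KI and 14.3 CPM in WT. The 4 inner root sheath markers summed to 6.61 CPM in Card14KI and 691 CPM in WT, where 58 cells held 3 or more of their UMIs and 1 cell held 2030. Krt71 had 0 UMIs in Card14KI and 963 in WT, and so was at least 752-fold lower taking 3 counts over the group as the floor. Of those 963 UMIs 867 lay in 1 cell, and the bound was 74.9-fold without it. The 5 fibroblast markers summed to 100.3 CPM in Card14KI and 630 CPM in WT. Col1a1 had 11.9 CPM in Card14KI and 136 CPM in WT, and the proteoglycan Dcn 49.8 in Card14KI and 182 CPM in WT, a log2 ratio of -1.68 that was 0.19 without inner root sheath and fibroblast-marked cells. Of 67 lower genes with a unique symbol 45 had a higher level in WT fibroblasts than in WT spinous cells. No share over all measured genes stands beside this count, so it is a description only. Without cells that held 3 or more UMIs of inner root sheath or fibroblast markers, which left 239 Card14KI and 40 WT cells, 15 of the 68 lower genes were still past 2-fold and 16 had the opposite sign. How much of these differences such transcripts carry was not tested otherwise.

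Genes of keratinocytes themselves stood among the lower ones as well. Alox12e (ENSMUSG00000018907, chromosome 11, 70315610 to 70322628), an epidermal 12-lipoxygenase, had 30.8 CPM in Card14KI and 191 CPM in WT (247 in Card14KI and 653 UMIs in WT), 6.19-fold lower, in 28.8% of Card14KI cells and 61.3% of WT cells. It was at 0 in Card14KI fibroblasts and at 1.13 CPM in WT fibroblasts, and its log2 ratio was -1.87 without the inner root sheath and fibroblast-marked cells. Scd2, which desaturates fatty acids, had 23.7 CPM in Card14KI and 115 CPM in WT. Fibroblasts held more Scd2, 178 CPM in Card14KI and 123 CPM in WT. The glycerol and water channel Aqp3 had 63.6 CPM in Card14KI and 160 CPM in WT, with a log2 ratio of -1.21 that was -2.18 without the marked cells. Klk7, a protease of desquamation, had 233 CPM in Card14KI and 544 CPM in WT (-1.19, and -0.58 without them). Krt6a had 19.3 CPM in Card14KI and 94.1 CPM in WT, a log2 ratio of -1.83 that was 0.0622 when Krt1 and Krt10 had to reach 2%, but Krt16, another stress keratin, 295 in Card14KI and 201 CPM in WT and Krt17 425 in Card14KI and 422 CPM in WT.

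Cornified envelope, junction and sterol synthesis lists ran slightly lower in Card14KI over all spinous cells, but not within each range of Krt5 and Krt14. Of 27 cornified envelope genes 5 were higher and 22 lower. The median was -0.17, which was 0.45 without the inner root sheath and fibroblast-marked cells. It was -0.05 in cells with no basal keratin (13 of 27 higher), 0.03 below 0.0240% (15) and 0.01 above it (14). Its sign also changed with each cell counted equally and with the same weights for the 3 ranges. The protease Asprv1 had 537 CPM in Card14KI and 916 CPM in WT, Sprr1b 219 in Card14KI and 338 CPM in WT and involucrin (Ivl) 225 in Card14KI and 296 CPM in WT. Of 25 junction genes 6 were higher and 19 lower (median -0.11, and 0.14 without the non-epithelial-marked cells). In the same order of ranges their medians were -0.12, 0.11 and -0.04, and the same weights for the ranges changed the sign. The connexin Gja1 had 79.9 in Card14KI and 131 CPM in WT. Of 20 sterol synthesis genes 3 were higher and 17 lower (median -0.25, and 0.21 without the non-epithelial-marked cells). Their medians by range were -0.19, -0.16 and 0.14. Sqle, squalene epoxidase, stood at 158 in Card14KI and 218 CPM in WT.

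Hypoxia and glycolysis genes were the lowest list, with a median of -0.33 that ranged from -0.50 to -0.28 over the 16 alternatives. Of 23 genes 5 were higher and 18 lower, of which 1, Egln3, passed 2-fold, where 0.791% of all measured genes were lower by 2-fold. Egln3, an oxygen-sensing prolyl hydroxylase, had 30.2 CPM in Card14KI and 82.7 CPM in WT (2.74-fold lower). The glycolytic enzymes Pgk1 (111 in Card14KI and 190 CPM in WT), Ldha (254 in Card14KI and 358 CPM in WT) and Gapdh (518 in Card14KI and 679 CPM in WT) were each lower, while Adm, adrenomedullin, was at 20.3 CPM in Card14KI and 9.05 CPM in WT. The list's median was -0.24 in granular cells and -0.04 in basal cells, and the difference between layers was not tested.

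**Figure D5:**
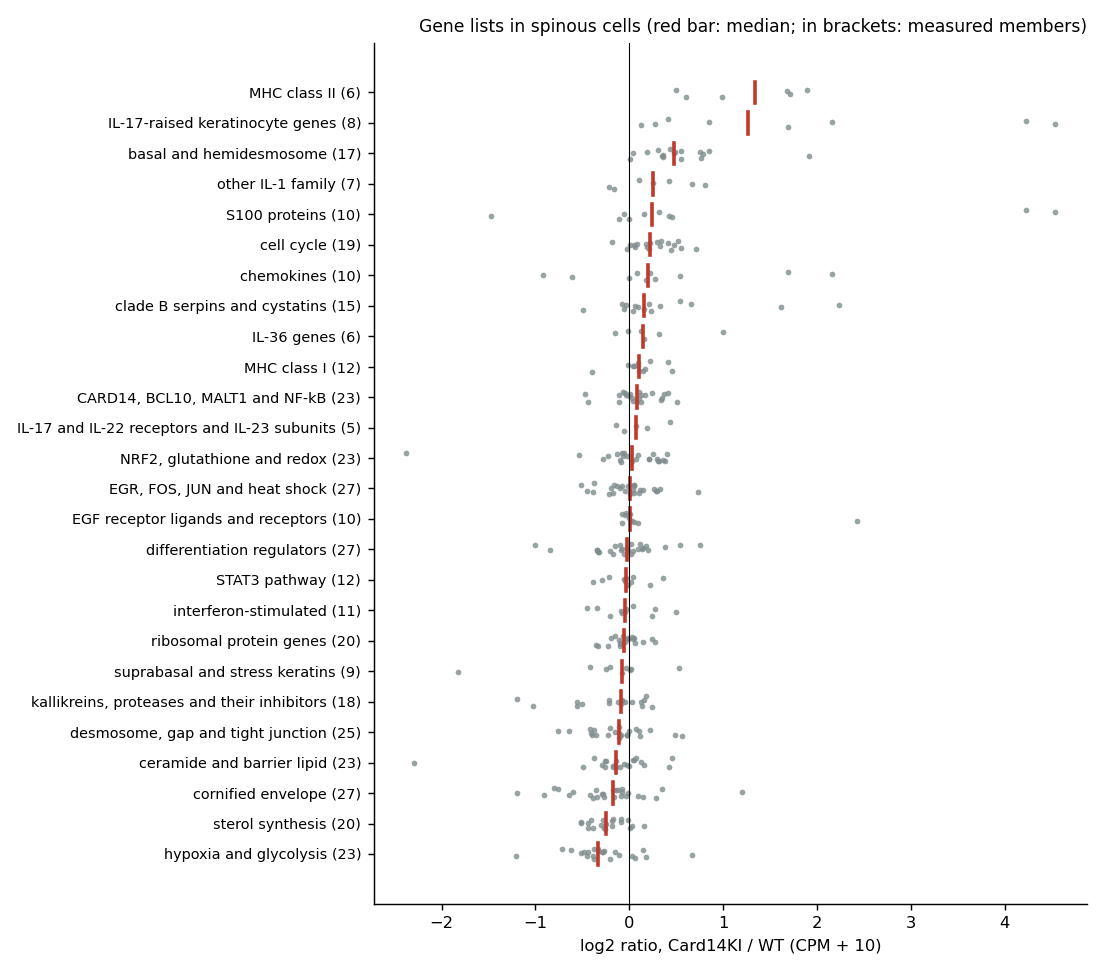
Log2 ratio of Card14KI over WT (CPM + 10) of each measured member of 26 gene lists, 1 grey point per gene and a red bar at the median, sorted by median. MHC class II (1.34) and IL-17-raised genes (1.27) are at the top and hypoxia and glycolysis genes (-0.33) at the bottom.

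The same genes had these values in neighbouring layers. In granular cells S100a8 had 98.2 CPM in Card14KI and 0 CPM in WT, Defb6 1312 in Card14KI and 176 CPM in WT, Serpinb3a 110 in Card14KI and 11.3 CPM in WT and Alox12e 24.9 in Card14KI and 113 CPM in WT. Epgn stood at 139 in Card14KI and 109 CPM in WT there, Ccl20 at 378 in Card14KI and 448 CPM in WT and Il1f6 at 609 in Card14KI and 359 CPM in WT. In basal cells S100a8 had 210 CPM in Card14KI and 1.62 CPM in WT, Epgn 304 in Card14KI and 33.1 CPM in WT and Defb6 162 in Card14KI and 6.46 CPM in WT. Krt6a, a follicle and stress keratin, was at 78.7 CPM in Card14KI basal cells and 2805 CPM in WT basal cells, and its part in the basal values was not tested.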

How the data were processed

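Back skin of 1 Card14KI and 1 WT mouse was digested for 73 min, and libraries were made with the 10x 3' v3.1 kit, per the labels' protocols. The authors deposited raw UMI counts for each gene in each barcode, not normalized, made with Cell Ranger and mm10 per the submitters' processing notes. Those notes give version 6.0.2 and the file headers 5.0.0; which annotation they used is not given in the sources used.

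Members were chosen by the thresholds in the report, and members and gene lists were chosen with earlier results of these data known. UMIs were summed over member cells of each library and scaled to the class total (CPM) in Python 3.11.15 with numpy 2.4.6, scipy 1.17.1 and pandas 2.3.3. Intervals (95%) are conditional binomial for ratios and Clopper-Pearson for shares, both exact. Genes with a mean under 5 CPM were left out. Genes named were the 12 highest and 12 lowest log2 ratios of CPM + 10 found in at least 5% of the member cells of the higher library and past 2-fold also without the cell with the most UMIs, up to 4 per list with the largest ratios, and members a sentence needs. Other genes past 2-fold that are named (such as Nppb and Aqp3) were chosen after their values were seen. Of 31053 features 30934 were located in GENCODE vM21; promoters are RefSeq's. No doublets were removed: Scrublet (scanpy 1.11.5) marked 4 Card14KI and 2 WT cells (0.137% and 0.0461%), taken as not having worked, so removal by score was an alternative. The scripts recovered simulated ratios. Depth and cell filters, scaling, pseudocount and cell subsets were also varied. With no replicates, intervals do not cover spread between animals.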

Additional observations from a re-analysis of the deposited data

Results flagged for a closer look

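Cxcl2 and Akr1c18, a steroid dehydrogenase, were higher by 2-fold in Card14KI spinous cells (log2 ratios of 2.16 and 1.77) but lower in Card14KI basal cells, at -0.87 for Cxcl2 and -1.09 for Akr1c18. Cxcl2 had 6.74 CPM in Card14KI basal cells and 20.6 CPM in WT basal cells, and Akr1c18 33.7 CPM in Card14KI and 83.2 CPM in WT. For Akr1c18 the spinous log2 ratio was 0.41 in cells with no Krt79 UMI and 0.93 without cells marked for a non-epithelial class, and for Cxcl2 it was 0.64 without those marked cells, so the 2-fold size did not hold there. The layers take opposite directions, and the difference was not tested.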

How the results depend on the processing

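No paired analysis was possible because each genotype has 1 library, so there is no second pair. Of the 24 genes named by size, 12 of 12 higher and 11 of 12 lower kept their direction over all 16 alternatives, and 7 higher and 5 lower stayed past 2-fold. These genes were chosen for size and for being past 2-fold without the top cell, which is also 1 of the 16 alternatives. Part of this stability was thus set by the choice of genes. Share of kept cells in Card14KI was 5.39% with a 2% limit on Krt1 and Krt10 and 7.83% with no Krt79 UMI; in WT it was 1.71% with the 2% limit. The 34 higher genes became 123 with a pseudocount of 1 CPM and 164 without cells marked for inner root sheath or fibroblasts. The 68 lower genes became 142 with that pseudocount, 33 with the highest Scrublet scores removed, 30 without the top cell of each gene, 39 without non-epithelial-marked cells and 36 without the inner root sheath and fibroblast-marked cells. The last of these left 40 WT cells; causes were not tested. Of 120 named genes 40 changed sign under at least 1 alternative, 38 of them in 1 of the cell subsets below, and 17 of the 40 had a log2 ratio of at least 0.5 either way. Of the genes past 2-fold, the subset without non-epithelial-marked cells turned 1 higher gene (Sostdc1, -0.45) and 8 lower ones, and that without inner root sheath and fibroblast-marked cells 1 higher and 16 lower ones. Among the named genes past 2-fold that were refitted under each alternative, directions reversed for Krt6a (0.0622 at the 2% limit), Wfdc21 (0.50 with Lor and Flg2 under 0.1% and 2.86 without inner root sheath and fibroblast-marked cells), Sprr2a3 (0.00095 there) and Lgals1 (0.18 without non-epithelial-marked cells). Both cell subsets were chosen after seeing the data. Leaving out cells marked for any other class kept 3 Card14KI and 5 WT cells and was not run.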

Other observations

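Transcripts of red cells were also higher in Card14KI spinous cells: the 4 haemoglobin markers summed to 94.3 CPM in Card14KI and 29.2 CPM in WT, with 110 Card14KI cells and 12 WT cells holding 3 or more of their UMIs. Hbb-bs, a beta-globin, was found in 64.4% of Card14KI cells and 26.1% of WT cells. Gm42418 had 4479 CPM in Card14KI and 9312 CPM in WT. BC100530, a stefin-like gene, had 821 CPM in Card14KI and 328 CPM in WT, and was found in 66.3% of Card14KI cells and 52.9% of WT cells. Immediate early genes were near even: of 27 measured, 14 were higher and 13 lower, with a median of 0.01, Fos at 1755 CPM in Card14KI and 2046 CPM in WT. Ribosomal protein genes were 7 higher and 13 lower of 20, with a median of -0.05.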
